A study of Mus musculus with 6 samples.

Results

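The 58 genes described here encode subunits of the BAF chromatin remodeller (22 genes), the NuRD deacetylase complex (14 genes) and the Polycomb repressive complexes PRC2 (7 genes) and PRC1 (15 genes). They were chosen by name from the 24054 genes of the expression tables, with earlier results of these data known. RNA was sequenced from 3 populations of a double knock-in mouse ES cell line (Foxa2-Venus heterozygous, Sox17-Cherry homozygous) in which both endoderm transcription factors are fused to fluorescent proteins. The d0 population was undifferentiated ES cells on day 0, sorted as negative for both reporters. The d3F population was mesendoderm, a common progenitor of mesoderm and endoderm, sorted as Venus-positive and Cherry-negative on day 3. The d5FS population was endoderm, sorted as positive for both reporters on day 5. Differentiation was on gelatine with 1 ng/ml murine Wnt3a and 10 ng/ml Activin A, and each population had 2 replicates. All populations carried both knock-in alleles and came from 1 line, so that day, treatment and sorting gate cannot be told apart.

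BAF is an ATP-driven machine that slides or ejects nucleosomes and tends to open chromatin. NuRD joins such an ATPase to histone deacetylases and, in ES cells, tunes the expression of pluripotency genes. PRC2 writes H3K27me3, PRC1 reads it through CBX proteins and ubiquitylates histone H2A, and both keep lineage genes silent in pluripotent cells. Most positions in these complexes can be filled by alternative paralogues, and the paralogue in place gives the complex its subtype. The data measure the RNA of the subunits and not the assembled complexes.

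The promoters of 4 PRC1 genes are shown because the largest differences in paralogue composition lay in the PHC position (Phc1 and Phc2) and because the PCGF position held genes that moved in opposite directions (Pcgf6 and Bmi1). Each sequence is the RefSeq promoter of build GRCm38.p6, from 250 bases before to 50 bases after the start, read 5′ to 3′ on the gene's strand, with matches to the GC box GGGCGG and the E box CACGTG, on both strands, in capitals.
Phc1, chr6:122340178-122340477, minus strand: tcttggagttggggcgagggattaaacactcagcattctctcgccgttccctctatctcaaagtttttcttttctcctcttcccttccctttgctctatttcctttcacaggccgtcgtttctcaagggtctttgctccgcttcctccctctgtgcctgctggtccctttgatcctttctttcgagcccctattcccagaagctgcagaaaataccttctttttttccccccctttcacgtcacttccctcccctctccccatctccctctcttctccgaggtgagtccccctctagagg
Phc2, chr4:128727321-128727620, plus strand: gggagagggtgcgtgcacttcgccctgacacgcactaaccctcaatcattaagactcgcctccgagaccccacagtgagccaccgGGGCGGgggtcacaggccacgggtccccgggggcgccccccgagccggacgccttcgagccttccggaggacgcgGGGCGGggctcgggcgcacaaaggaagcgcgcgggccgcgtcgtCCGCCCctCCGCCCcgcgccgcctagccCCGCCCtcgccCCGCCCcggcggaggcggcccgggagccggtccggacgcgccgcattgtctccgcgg
Pcgf6, chr19:47050857-47051156, minus strand: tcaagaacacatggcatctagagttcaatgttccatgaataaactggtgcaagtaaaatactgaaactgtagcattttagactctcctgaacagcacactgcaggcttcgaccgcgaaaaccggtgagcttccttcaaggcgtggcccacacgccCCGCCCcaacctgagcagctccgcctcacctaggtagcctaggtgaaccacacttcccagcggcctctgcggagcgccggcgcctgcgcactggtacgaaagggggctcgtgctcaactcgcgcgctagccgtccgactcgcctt
Bmi1, chr2:18676768-18677067, plus strand: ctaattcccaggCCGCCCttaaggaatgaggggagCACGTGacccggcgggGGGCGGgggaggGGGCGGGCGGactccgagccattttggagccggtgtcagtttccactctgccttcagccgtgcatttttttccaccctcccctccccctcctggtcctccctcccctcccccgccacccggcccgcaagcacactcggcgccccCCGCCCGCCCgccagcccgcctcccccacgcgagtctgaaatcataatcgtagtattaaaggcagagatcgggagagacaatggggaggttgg
Phc1 held no GC box in this window, Pcgf6 held 1, and Phc2 and Bmi1 held 6 each, overlapping matches included. These 4 do not stand for the rest: the window of Pcgf5, which rose, held 0. Among the subunit genes called between d0 and d5FS (below), a GC box was in 7 of 9 promoters of those lower in d5FS (77.8%). It was in 2 of 3 of those higher (66.7%). A promoter was matched for 49 of the 58 genes, and 42 of these (85.7%) held a GC box, against 65.1% of the promoters of 10791 genes tested. The CCAAT box (CCAAT) was in 30.6% of the 49 and 38.6% of all, the E box in 14.3% and 10.0%, the forkhead core TGTTTAC in 2.04% and 2.45%, the octamer ATTTGCAT in 2.04% and 1.44%, and TATAAA in 6.12% and 7.06%. None of these motifs was found in the Phc1 window, which says only that these letters are not in it. The median ratio of observed to expected CpG was 0.901 over the 49 promoters and 0.755 over all.

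The libraries held 16457729 to 22768686 estimated counts, of which the 58 genes took 0.400% to 0.556%. Genes with an effective length under 200 bases took 56.6% to 77.5% of the TPM. The share was higher in replicate 2 of each population (73.1% against 56.7% in d0, 69.6% against 56.6% in d3F, and 77.5% against 72.0% in d5FS), and replicate 2 also had counts for more genes (18343 to 19846, against 16770 to 16970 in replicate 1). A fit with a term for the replicate number, given in the last section, changed the counts of genes that passed. Beyond that fit, the part of this difference between replicates in the results was not tested. TPM levels were therefore not compared between libraries: samples were compared by CPM (read counts scaled to a common library size, after TMM normalization), and paralogues by their share of the summed TPM (a transcript abundance corrected for length and scaled to a fixed library total) of their position within a library. Summed CPM of 5 pluripotency genes was 1257 and 2715 in the d0 libraries, with 863 and 456 (d3F), then 116 and 97.6 (d5FS). For 4 mesendoderm genes it was 31.6 and 11.5, 341 and 297, and 176 and 203. For 4 definitive endoderm genes it was 2.28 and 1.64, 128 and 128, and 425 and 704. These sums followed the labels. Markers of other cells moved too: the sum of 6 fibroblast genes was 8.95 to 14.5 in d0 and 195 to 231 in d5FS, Col1a2 leading. Col1a1, Col1a2, Col3a1 and Postn rose between d0 and d5FS (edgeR adjusted p = 0.028, 0.0045, 0.0044 and 0.0060). Thy1 was at most 1.02 in d5FS and Lum was too low to test. The study depleted the feeder fibroblasts before differentiation, and the d5FS gate took only cells positive for both reporters. Whether feeder cells contributed was not tested. The sum of 5 heart mesoderm genes was 2.68 to 3.998 in d0 and 141 to 368 in d5FS, the latter nearly all Myl7, with Nkx2-5 too low to test. Neuronal genes summed to 180 to 347 in d0 and 29.6 to 41.8 in d5FS, and 9 proliferation genes to 3653 to 4224 and 1890 to 2016. Of these 9, Mcm2, Mcm3, Mcm5, Mcm6 and Pcna fell (edgeR adjusted p = 0.0085 to 0.041). Mki67, Top2a, Cdk1 and Ccnb1 did not pass, with log2 fold changes of -0.04, -0.62, -0.21 and -0.88. Extraembryonic endoderm genes summed to 49.7 to 336 in d0 and 95.4 to 291 in d5FS, mostly Lrp2, whereas Ttr and Afp were at most 0.154 CPM in d0 and rose to 10.7 and 20.2, and to 6.13 and 25.3, in d5FS (adjusted p = 0.0086 and 0.0030). The part of these cells and of proliferation in the results below was not tested, and in bulk RNA fewer cells of a type cannot be told apart from less RNA per cell.

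Between d0 and d5FS, 13 of the 57 subunit genes with enough counts to test passed an adjusted p of 0.05 (edgeR quasi-likelihood test, no term for the replicate number, Benjamini-Hochberg over all 14539 genes tested). This was 22.8% of them, against 23.3% of all genes, so that the share of subunit genes called lay at the background. In all, 10 of the 13, namely Smarcc1, Dpf1, Actl6a, Hdac1, Eed, Jarid2, Mtf2, Cbx7, Pcgf6 and Phc1, fell in d5FS (17.5%, background 10.7%), and 3, namely Dpf3, Pcgf5 and Bmi1, rose (5.26%, background 12.5%). With a fitted change of more than 2-fold required as well, 12 genes were called (21.1%, background 22.8%), Smarcc1 being the one left out. DESeq2's test against a 2-fold change, a stricter rule, called 3, namely Dpf1, Dpf3 and Phc1 (5.26%, background 6.82%). Median log2 fold changes were -0.19 for the 57 genes and 0.02 for all genes tested, and by complex -0.10 for BAF, -0.51 for NuRD, -0.43 for PRC2 and 0.35 for PRC1. Actl6b, the neuronal paralogue of Actl6a, had 0 to 2 counts per library and was not tested.

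**Figure D1:**
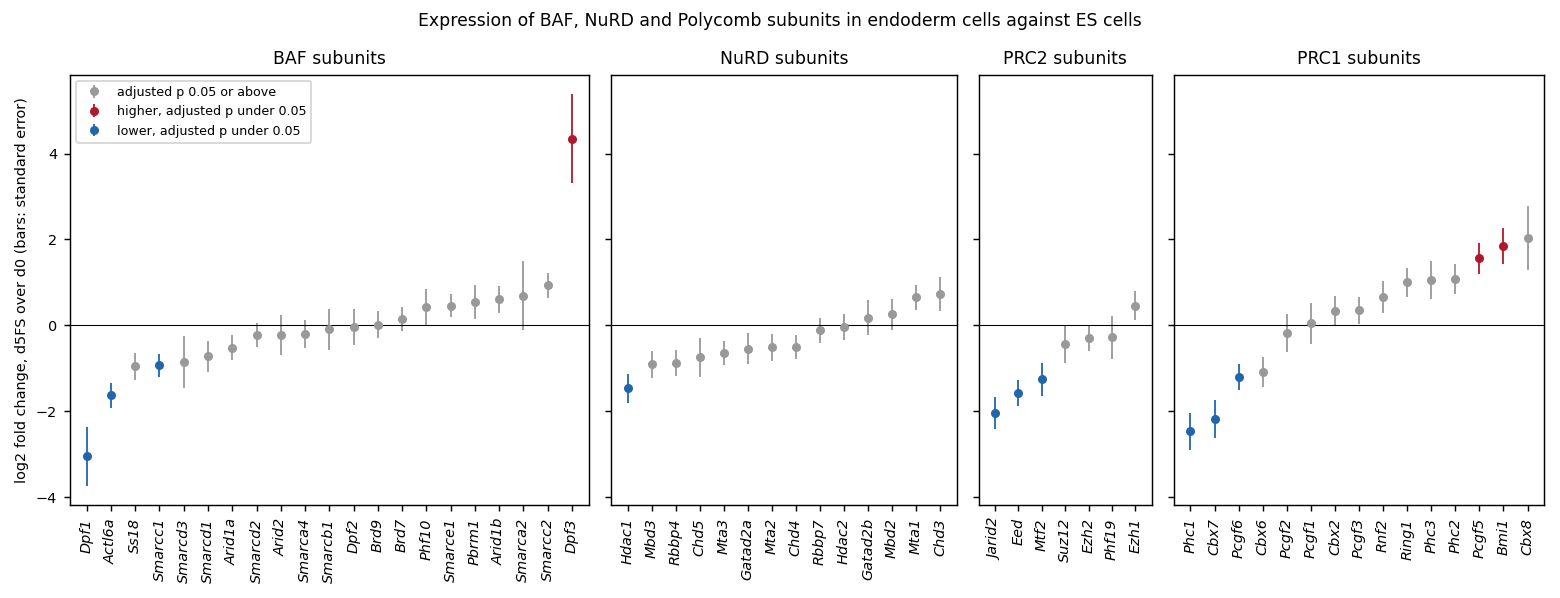
Log2 fold change of d5FS over d0 (vertical axis; bars are standard errors, 2 libraries per population) for the 57 tested genes, one panel per complex, in order of size. Blue genes were lower and red genes higher at an adjusted p under 0.05; Phc1 (-2.47), Cbx7 (-2.18) and Jarid2 (-2.04) lie at the low end of the Polycomb panels, and Dpf1 (-3.05) and Dpf3 (4.34) at the ends of the BAF panel.

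The same course could be followed sample by sample. In 22 of the 57 genes both d5FS libraries lay below both d0 libraries (38.6%, background 30.5%), and in 13 both lay above (22.8%, background 32.2%). In 10 genes all libraries were ordered d0, d3F, d5FS from high to low without overlap (17.5%, background 8.97%): Smarcc1, Actl6a, Ss18, Chd4, Hdac1, Eed, Jarid2, Cbx6, Pcgf6 and Phc1. The reverse order was seen in 3 (5.26%, background 9.89%): Smarcc2, Pcgf5 and Bmi1. From d0 to d3F, 2 subunit genes were called, Dpf3 higher and Eed lower (3.51%, background 4.70%). From d3F to d5FS none was called by edgeR (background 1.54%). Of the 57, 8 had an unadjusted p under 0.05, as had 2635 of all 14539 genes. DESeq2's Wald test called 4 (1058 of all 14745 genes) and its test against a 2-fold change called 0 (189 of 14745). The 3 comparisons share populations and are not independent.

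The calls rested on both d5FS libraries. Without d5FS replicate 1 only Jarid2 was called between d0 and d5FS, and without d5FS replicate 2 only Actl6a and Phc1; over all genes the calls went from 3382 to 1047 and 1533. Without any one d0 or d3F library fewer subunit genes were called too, as were fewer of all genes. All 13 genes kept their direction in each of these fits.

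**Figure D2:**
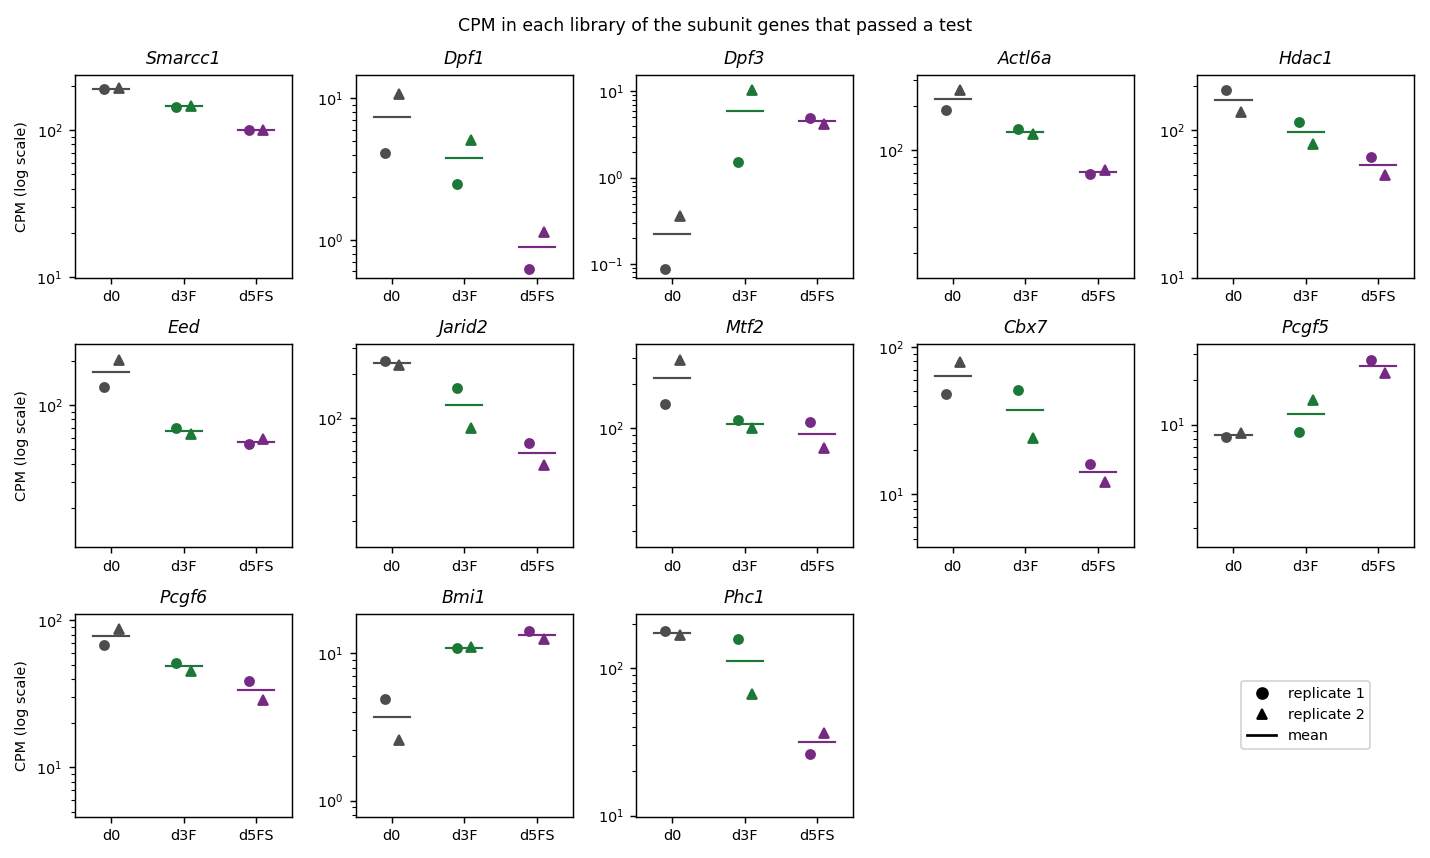
CPM (log axis, each panel with its own range) of the 13 genes that passed a test, in d0, d3F and d5FS; circles are replicate 1, triangles replicate 2 and lines the mean. The d5FS libraries lie outside the d0 libraries in every panel, and d3F lies between them in Smarcc1, Actl6a, Hdac1, Eed, Jarid2, Pcgf6 and Phc1, and in Pcgf5 and Bmi1 in the opposite direction.

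PRC1 held the strongest exchange of paralogues, in the PHC position. Phc1 (chr6:122317731-122340561, GRCm38/mm10), a polyhomeotic protein whose SAM domain links PRC1 complexes into larger bodies, had 178 and 169 CPM in d0, 158 and 66.5 in d3F, then 26.1 and 36.6 in d5FS. The d3F libraries differed widely from each other, and the d5FS libraries lay below all others. Phc1 fell 5.54-fold (log2 fold change -2.47, SE 0.44, adjusted p = 0.0079). Its paralogue Phc2 had 32.4 and 24.3, 53.0 and 57.6, and 43.5 and 75.9 CPM, with a log2 fold change of 1.07 (SE 0.35, adjusted p = 0.058) that missed the threshold. Phc3 had 7.64 to 26.5 CPM over the 6 libraries and did not pass. Of the TPM of the 3 genes, Phc1 held 76.9% and 80.9% in d0, 65.1% and 41.9% in d3F, then 25.6% and 23.1% in d5FS. Phc2 held 21.5% and 17.8%, 33.6% and 55.8%, and 65.5% and 74.2%, and Phc3 held at most 8.81%. The leading gene of the position was thus Phc1 in d0 and Phc2 in d5FS, with no overlap between the libraries, and a difference in the Phc1 share of -54.5 percentage points. Without the length correction, that is by CPM, the Phc2 share differed by 39.7 points in place of 50.2. The call of Phc1 was lost without d5FS replicate 1 (log2 fold changes of -2.72 to -2.25 over the fits without 1 library). Phc1 lies 367 kb from Nanog on chromosome 6, with 6 protein-coding genes between them.

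In the CBX position, which carries the chromodomain that binds H3K27me3, Cbx7 fell. Cbx7 (chr15:79915807-79971119), known as the main CBX protein of ES cells, had 47.9 and 79.6 CPM in d0, 50.8 and 24.1 in d3F, then 16.1 and 12.04 in d5FS. Both d5FS libraries lay below all others, whereas d0 and d3F overlapped. The fall was 4.53-fold (log2 fold change -2.18, SE 0.45, adjusted p = 0.013), and the call was lost without either d5FS library (-2.51 to -1.76 without 1 library). Cbx7 held 53.0% and 63.3% of the position's TPM in d0, 53.0% and 30.6% in d3F, then 30.4% and 16.6% in d5FS. Cbx2 held 25.9% and 16.8%, 27.7% and 39.2%, and 38.6% and 49.6%, and was the leading gene in d5FS. Cbx8 held 2.73% and 2.51%, 2.22% and 13.1%, and 17.8% and 18.5%. Cbx2 and Cbx8 are CBX proteins associated with differentiated cells. In CPM, Cbx2 ran from 27.003 to 47.1 over all libraries and Cbx8 from 0.934 to 5.96, with log2 fold changes of 0.34 and 2.03 (adjusted p = 0.50 and 0.079), so that neither passed. The Cbx8 share depended on the length correction: it differed by 15.5 points by TPM and by 5.93 by CPM. Cbx6 held 18.4% and 17.4%, 17.1% in both d3F libraries, and 13.2% and 15.3%; its log2 fold change was -1.09 (adjusted p = 0.054).

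The PCGF position, whose occupant sets the PRC1 subtype, held a fall and 2 rises. Pcgf6 (chr19:47033617-47050906), the partner of a variant PRC1 that represses germline genes in ES cells, had 68.1 and 87.5 CPM in d0, 51.6 and 45.5 in d3F, then 38.6 and 28.6 in d5FS. It fell 2.31-fold (log2 fold change -1.21, SE 0.30, adjusted p = 0.025). Pcgf5 (chr19:36348309-36460970), the partner of another variant PRC1, had 8.25 and 8.71, 8.93 and 14.6, and 27.7 and 22.5 CPM, and rose 2.96-fold (log2 fold change 1.56, SE 0.36, adjusted p = 0.020). Bmi1 (chr2:18677018-18686629), the partner of a canonical PRC1 known for stem cell self-renewal, had 4.87 and 2.56, 10.88 and 10.96, and 14.2 and 12.5 CPM, and rose 3.58-fold (log2 fold change 1.84, SE 0.42, adjusted p = 0.018). All 3 genes kept their population order in every library. The Pcgf6 call was lost in 5 of the 6 fits without 1 library, all but that without d0 replicate 1 (-1.449 to -0.999). The Pcgf5 call was lost without any one d0 or d5FS library (1.40 to 1.72), and the Bmi1 call without d0 replicate 2 or either d5FS library (1.47 to 2.37).

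By TPM, Pcgf6 was the leading gene of the PCGF position in d0, with 51.6% and 59.1%, and held 42.1% and 34.9% in d3F and 28.0% and 22.6% in d5FS. Pcgf5 held 9.08% and 8.54%, 10.6% and 16.2%, and 29.0% and 25.7%. In d5FS Pcgf5, Pcgf6 and Pcgf3 overlapped, Pcgf3 holding 26.8% and 24.7% there after 24.4% and 14.4% in d0 and 24.3% and 25.1% in d3F. Despite its rise Bmi1 stayed a minor gene, with 2.06% and 0.958% in d0, 4.97% and 4.70% in d3F, then 5.78% and 5.53% in d5FS. Pcgf1 held 8.08% to 16.6% over the 6 libraries and Pcgf2 2.33% to 5.33%, and neither Pcgf1, Pcgf2 nor Pcgf3 passed a test. The Pcgf5 share differed by 18.5 points between d0 and d5FS by TPM and by 11.5 by CPM. In the E3 ligase position Rnf2 held 79.7% to 92.5% of the TPM in every library against Ring1, with log2 fold changes of 0.66 for Rnf2 and 1.00 for Ring1 (adjusted p = 0.22 and 0.065).

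In PRC2, 3 of 7 genes fell between d0 and d5FS, where 10.7% of all genes fell: a core subunit and 2 accessory subunits. Eed (chr7:89954654-89980983), the core subunit that binds H3K27me3 and stimulates the enzyme, had 132 and 203 CPM in d0, 70.3 and 64.1 in d3F, then 54.1 and 58.6 in d5FS. It fell 2.97-fold over the whole course (log2 fold change -1.57, SE 0.31, adjusted p = 0.011) and 2.49-fold from d0 to d3F (-1.32, SE 0.31, adjusted p = 0.0497). The d0 libraries stood apart from the other 4, which lay within 54.1 to 70.3. The call from d0 to d5FS was lost without either d5FS library (-1.86 to -1.22), and that from d0 to d3F in every fit without 1 library other than that without d0 replicate 1 (-1.59 to -0.96). Of its exon bases, 6.82% overlap a transcript on the other strand, whose reads a kit without strand marking cannot separate.

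Jarid2 (chr13:44729474-44921643), an accessory subunit that guides PRC2 to its targets in ES cells, had 244 and 231 CPM in d0, 159.5 and 85.7 in d3F, then 67.6 and 47.7 in d5FS. It fell 4.12-fold (log2 fold change -2.04, SE 0.37, adjusted p = 0.0088), a call lost without d5FS replicate 2 (-2.32 to -1.80). Mtf2 (chr5:108065674-108109004), a Polycomb-like protein that binds unmethylated CpG islands, had 147 and 291, 113 and 101, and 110.1 and 73.5 CPM. The d0 replicates of Mtf2 spanned 147 to 291 CPM, whereas the highest library of the other populations had 113. Its fall was 2.38-fold (log2 fold change -1.25, SE 0.39, adjusted p = 0.049); without d0 replicate 2 the log2 fold change was -0.67 (adjusted p = 0.27), and only the fit without d0 replicate 1 kept the call (-1.68). Phf19, the third gene of the accessory position, had 16.5 and 6.87, 2.88 and 3.03, and 7.37 and 11.9 CPM and did not pass.

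Among the 3 accessory genes Jarid2 held 51.7% and 36.1% of the TPM in d0, 50.2% and 37.7% in d3F, then 30.2% and 29.0% in d5FS. Mtf2 held 42.6% and 62.2%, 48.3% and 60.2%, and 64.5% and 59.3%, and led these 3 genes on average in each population. The shares depend on this choice of genes, which leaves out E130012A19Rik, Aebp2 and Phf1. E130012A19Rik had 13.1 and 36.7 TPM in d0, where Mtf2 had 22.8 and 21.2. Phf19 held 5.68% and 1.76%, 1.48% and 2.14%, and 5.35% and 11.6%. The Jarid2 difference of -14.3 points between d0 and d5FS was -6.48 without d0 replicate 1 and -22.1 without d0 replicate 2. Of the methyltransferases, Ezh2 held 86.8% and 78.9% in d0, 85.3% and 84.3% in d3F, then 72.3% and 75.6% in d5FS, the rest being Ezh1. Ezh2 had 46.7 to 73.2 CPM in the 6 libraries and Ezh1 16.7 to 30.8, and with Suz12 (64.6 to 151 CPM) these genes passed no test.

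In NuRD, 1 of 14 genes passed a test, between d0 and d5FS, where 23.3% of all genes passed. Hdac1 (chr4:129516104-129542713), a histone deacetylase, had 187 and 133 CPM in d0, 113 and 81.0 in d3F, then 66.3 and 49.5 in d5FS. It fell 2.76-fold (log2 fold change -1.47, SE 0.33, adjusted p = 0.018), and the call was lost without d0 replicate 1 or either d5FS library (-1.70 to -1.21). RefSeq lists a pseudogene of this gene, Hdac1-ps, which the expression tables do not list, so that reads shared with it are uncertain. Its paralogue Hdac2 had 148 and 127, 161 and 109.8, and 142 and 126 CPM, with a log2 fold change of -0.04 (SE 0.30, adjusted p = 0.93). Hdac1 held 56.2% and 51.6% of the TPM of the pair in d0, 41.8% and 42.9% in d3F, then 32.3% and 28.6% in d5FS, Hdac2 holding the rest. The share of Hdac1 thus differed by -23.4 points between d0 and d5FS, and between each pair of populations the libraries did not overlap.

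Other NuRD positions differed less. Rbbp4, a histone-binding WD40 protein that NuRD shares with PRC2, had 489 and 579 CPM in d0, 439.7 and 493 in d3F, then 254 and 327 in d5FS (log2 fold change -0.88, adjusted p = 0.067). It held 34.0% and 35.8%, 34.9% and 33.7%, and 22.8% and 25.3% of its position, Rbbp7 holding the rest. Mta1, an MTA scaffold subunit, held 12.4% and 8.36% in d0, 25.5% and 21.9% in d3F, then 22.3% and 20.2% in d5FS. Mta3 held 34.9% and 41.2%, 22.4% and 20.2%, and 34.9% and 29.5%, and Mta2 42.8% to 57.9% in all libraries. In CPM the closest of these to a call was Mta3 between d0 and d3F (65.4 and 84.1 against 34.2 and 32.6, log2 fold change -1.16, adjusted p = 0.058). Mbd2 held 9.60% and 10.3% of its pair in d0, 16.8% and 21.5% in d3F, then 24.4% and 15.6% in d5FS, and Mbd3, which defines the NuRD of ES cells, the rest. That difference of 10.1 points was 5.66 without d5FS replicate 1. The ATPase Chd4 held 89.995% to 96.7% of its position, and Gatad2a 73.3% to 91.4%; Chd3, Chd5, Gatad2b and the genes above other than Hdac1 passed no test.

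In BAF, 4 of 21 tested genes passed between d0 and d5FS, where 23.3% of all genes passed. Smarcc1 (chr9:110117708-110240178), a core scaffold subunit that in ES cells is used in preference to Smarcc2, had 191 and 193 CPM in d0, 144 and 146 in d3F, then 100.3 and 101 in d5FS. The replicates were close in each population and the populations did not overlap. Smarcc1 fell 1.91-fold (log2 fold change -0.93, SE 0.26, adjusted p = 0.037), a call lost in all 6 fits without 1 library at a log2 fold change of -0.95 to -0.92. Smarcc2 had 14.8 and 14.6, 24.8 and 24.6, and 30.2 and 25.9 CPM (log2 fold change 0.93, SE 0.29, adjusted p = 0.052) and narrowly missed. Smarcc1 held 91.4% and 91.6% of the TPM of the pair in d0, 82.7% and 82.9% in d3F, then 73.1% and 76.2% in d5FS. Actl6a (chr3:32706298-32726973), the actin-related subunit of proliferating progenitors, had 186 and 254, 138 and 128, and 68.8 and 73.5 CPM. It fell 3.10-fold (log2 fold change -1.63, SE 0.29, adjusted p = 0.0081), a call lost only without d5FS replicate 1 (-1.85 to -1.38). Of its exon bases 11.6% overlap Mrpl47 on the other strand.

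The double PHD finger position, a histone reader, held a fall and a rise among genes of low expression. Dpf1 (chr7:29303951-29318243), best known from neurons, had 4.12 and 10.7 CPM in d0, 2.48 and 5.10 in d3F, then 0.624 and 1.15 in d5FS, the last from 11 and 20 counts. It fell 8.29-fold (log2 fold change -3.05, SE 0.68, adjusted p = 0.017), a call lost without d0 replicate 2 or either d5FS library (-3.59 to -2.21). Neuronal marker genes had lower sums in d5FS as well, as given above, and their part was not tested. Dpf3 (chr12:83213745-83487716), known from heart and muscle, had 0.0877 and 0.359 CPM in d0, 1.502 and 10.3 in d3F, then 4.88 and 4.18 in d5FS. The d0 values came from 2 and 7 counts, so that the size of the fold is poorly fixed. Dpf3 rose between d0 and d5FS (log2 fold change 4.34, SE 1.04, adjusted p = 0.021) and between d0 and d3F (4.72, SE 1.05, adjusted p = 0.043). The first call was lost without d0 replicate 1 or either d5FS library (3.62 to 5.61), and the second in every fit without 1 library other than that without d3F replicate 1; without d3F replicate 2 the log2 fold change was 2.76 (adjusted p = 0.26). The sum of the heart genes was higher in d5FS too, through Myl7, whereas Tbx5, Hand1 and Hand2 were at most 1.60 CPM there.

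Dpf2 and Phf10 nevertheless supplied most of that position. Phf10, the reader of the PBAF form, held 63.2% and 46.7% in d0, 83.3% and 63.3% in d3F, then 77.6% and 48.5% in d5FS, and Dpf2 held 32.9% and 42.3%, 14.9% and 26.5%, and 17.2% and 46.5%. Dpf1 held 3.80% and 10.5%, 1.11% and 3.42%, and 0.503% and 0.952%, and Dpf3 at most 6.74%. In the Smarcd position Smarcd1 held 44.0% and 36.1% in d0, 49.4% and 44.3% in d3F, then 28.2% and 36.1% in d5FS. Smarcd2 held 53.3% and 57.2%, 48.5% and 53.6%, and 67.9% and 60.6%, and Smarcd3, at most 6.72%, shares 48.2% of its exon bases with Chpf2 on the other strand. The ATPase Smarca4 held 93.3% to 99.5% of its position in every library, at 138 to 227 CPM, against Smarca2. Of the ARID genes, Arid1a (34.3% to 54.0%) and Arid2 (36.5% to 53.0%) overlapped between populations, as did Brd7 (65.0% to 71.6%) and Brd9. Arid1b held 7.62% and 9.47% in d0, below every other library, 12.7% and 14.7% in d3F, then 12.7% and 17.98% in d5FS. Smarcb1, Smarce1, Pbrm1, Ss18 and the other genes of this paragraph apart from Dpf1 and Dpf3 passed no test, Ss18 coming nearest (log2 fold change -0.96, adjusted p = 0.055).

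**Figure D3:**
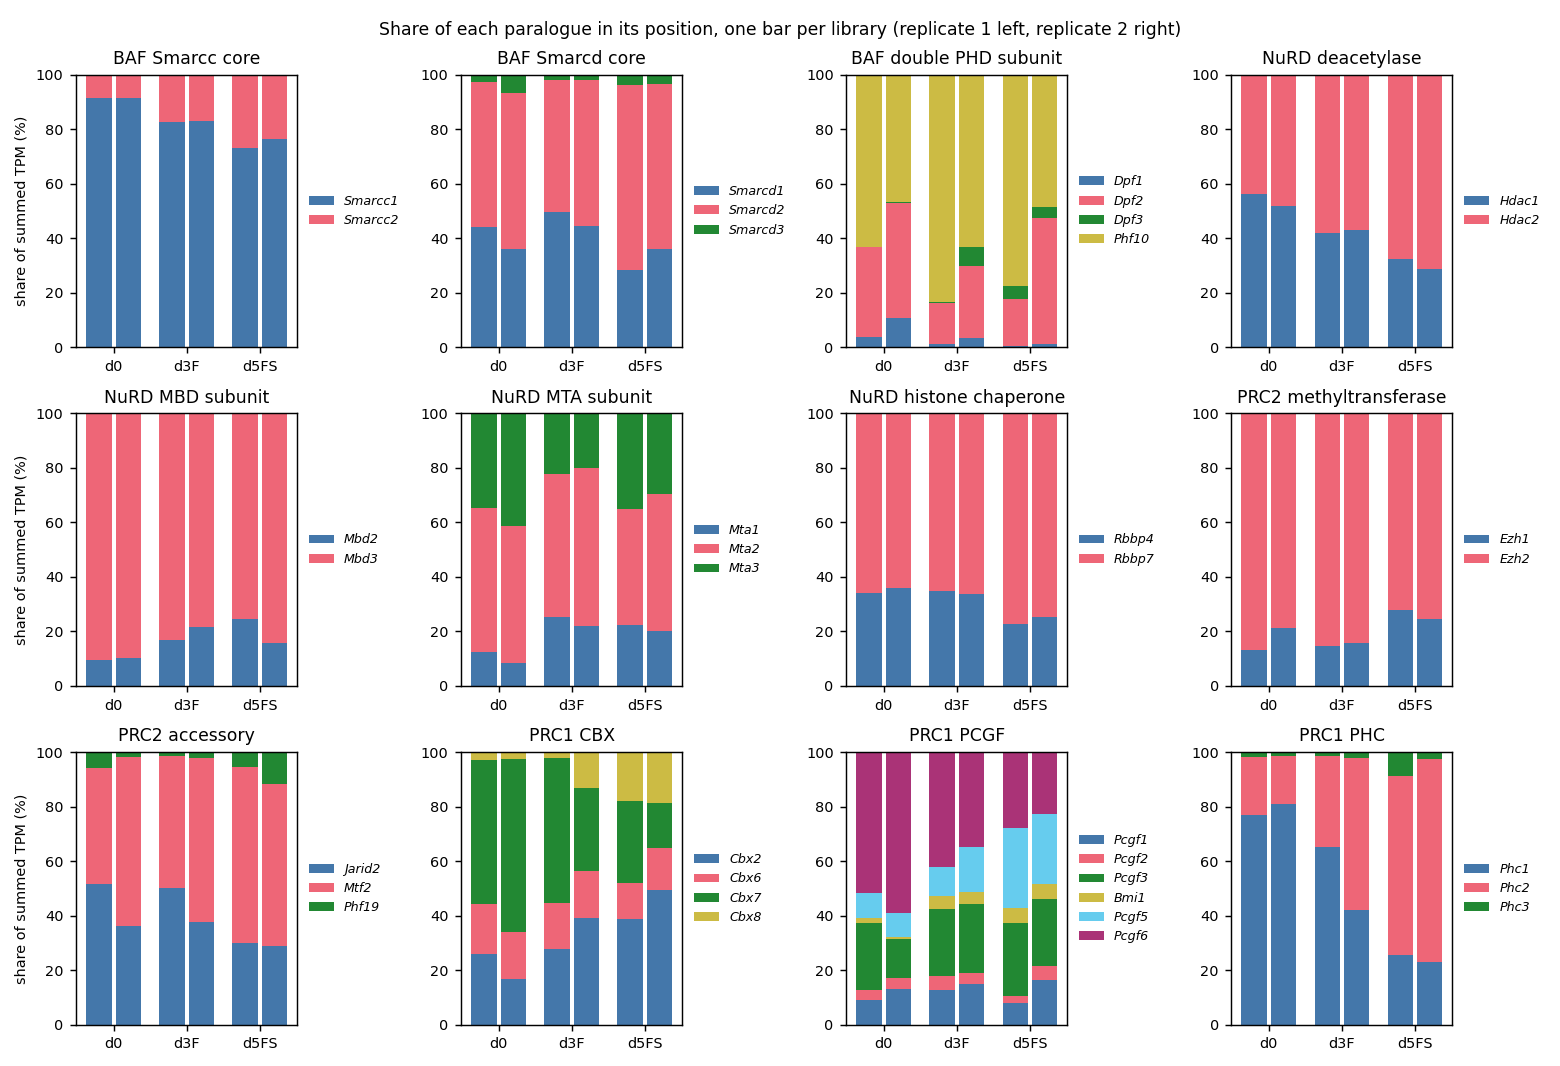
Share of each gene in the summed TPM of its position (vertical axis, percent), one bar per library. Shown are the 12 positions in which a share differed by 10 points or more between 2 populations without overlap. Phc1 holds 76.9% and 80.9% of its position in d0 and 25.6% and 23.1% in d5FS. Shares of Hdac1, Cbx7 and Pcgf6 also fall, and those of Phc2, Hdac2, Cbx2, Cbx8 and Pcgf5 rise. A share can rise through the fall of another gene alone. By CPM, Phc2, Hdac2, Cbx2 and Cbx8 passed no edgeR test, with log2 fold changes of -0.04 for Hdac2 and 0.34 for Cbx2.

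Across the 19 positions with alternative subunits, 12 had such a difference in some comparison and 9 between d0 and d5FS. No such count was made for other groups of genes. Each position offered several genes and 3 comparisons. By CPM, 32.2% of all genes lay higher and 30.5% lower in d5FS than in d0 without overlap. The PRC2 accessory position, in both counts, groups Jarid2 with the Polycomb-like Mtf2 by role, not as paralogues, and leaves out other accessory genes. The leading gene by mean share was the same in all 3 populations in 14 positions. The 5 in which it differed were PHC, CBX, PCGF, the deacetylases and ARID, the last with overlapping libraries of its leading genes Arid1a and Arid2. These shares carry no test: with 2 libraries against 2 an exact two-sided permutation test cannot give less than p = 0.33. The 45 genes that passed in no comparison had, Actl6b aside, log2 fold changes between d0 and d5FS from -1.09 (Cbx6) to 2.03 (Cbx8).

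Further subunits and partners were counted from lists set beside the 58 genes. Neither the 8 further BAF genes nor the 6 further NuRD genes held a call by edgeR or by DESeq2's Wald test in any comparison. Between d0 and d5FS, 0 of the former and 1 of the latter had an unadjusted p under 0.05, as had 5660 of all 14539 genes. With no filter on low counts 1 NuRD partner, Cdk2ap1, was called there, as were 4633 of all 21376 genes. Of 21 tested Polycomb partners, 9 passed between d0 and d5FS, where 23.3% of all genes did. Between d0 and d3F 0 passed by edgeR (6 with an unadjusted p under 0.05) and 3 by DESeq2's Wald test. Between d3F and d5FS 0 passed by edgeR (3 unadjusted) and 1 by the Wald test. Of all 14539 genes, 2994 and 2635 had an unadjusted p under 0.05 in these comparisons. The Wald test called 1490 and 1058 of 14745. The 6 that fell were E130012A19Rik, the PRC2 partner also named Epop (log2 fold change -3.39, adjusted p = 0.016), Sfmbt1 (-1.81, adjusted p = 0.036), Sfmbt2 (-1.62, adjusted p = 0.031), L3mbtl2 (-1.54, adjusted p = 0.028), Usp7 (-1.52, adjusted p = 0.018) and Kdm2b (-1.07, adjusted p = 0.038). L3mbtl2 belongs to the same variant PRC1 as Pcgf6, and Kdm2b brings a variant PRC1 to CpG islands. Other variant PRC1 partners on the list did not pass by edgeR. Among them were Mga (-0.03, adjusted p = 0.97), E2f6 (0.46, adjusted p = 0.31) and Bcor (-0.62, adjusted p = 0.20). E130012A19Rik had 42.5 and 254 CPM in d0 and 10.9 and 17.4 in d5FS, and its log2 fold change was -1.58 without d0 replicate 2 (adjusted p = 0.037). That of Sfmbt2, at 184 and 77.2 CPM in d0 and 37.8 and 47.6 in d5FS, was -0.87 without d0 replicate 1 (adjusted p = 0.14). The 3 that rose were Bcorl1 (2.13, adjusted p = 0.011), Auts2 (1.49, adjusted p = 0.045) and Yaf2 (1.43, adjusted p = 0.016). Auts2 is a partner of variant PRC1 with Pcgf5, and Yaf2 a subunit of variant PRC1 in general. Of the 9 calls, 2 were left without d5FS replicate 1 (Bcorl1 and Usp7), 2 without d5FS replicate 2 (Yaf2 and L3mbtl2), 5 without d0 replicate 2 and 7 without any other single library.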

How the data were processed

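RNA of 6 libraries was sequenced, 2 per population; per the labels, total RNA was depleted of ribosomal RNA and prepared with the TruSeq V2 kit, which does not mark strand. The authors aligned reads with STAR to mm10 and quantified genes with RSEM (versions not given in the sources used here), and deposited an expected count, a TPM and an FPKM value per gene and library. Expected counts were rounded and fitted with edgeR 4.0.16 (R 4.3.3; filterByExpr, TMM, 1 mean per population over all 6 libraries, 3 residual degrees of freedom; quasi-likelihood test, adjusted p under 0.05 over 14539 of 24054 genes). This replaced the study's DESeq2 test against a 2-fold change, which was run as an alternative with DESeq2 1.42.0. TPM gave paralogue shares per position, and CPM gave alternative shares. Deposited FPKM gives the same shares as TPM by definition. Standard errors were derived from the log2 fold change and its F statistic.

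The study calls the replicates independent biological replicates; the labels give no shared batch. In the study's sample list each population has a library with mRNA in its name and another with totRNA, not tied to replicate numbers, whereas the labels describe the same protocol for all. Replicates 1 and 2 differ in short genes in each population, as the report gives; which library type either is was not tested. With 2 per population, estimates rest on few libraries, and counts of 16457729 to 22768686 per library limit precision only for the lowest genes.

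The 58 genes, the positions and the lists were chosen with earlier results of these data known. Genes named with values in every library were those with an adjusted p under 0.05 in any comparison, and the paralogues of positions with a share difference of at least 10 percentage points without overlap; others are given by range, and Mta3, Ss18 and others nearest to a call, and Smarca4, were chosen after their values were seen. Exon overlaps are from GENCODE M21 (GRCm38/mm10), promoters from RefSeq (GRCm38.p6): the one listed or, of several, that nearest to the lowest-numbered curated transcript. The test was checked on simulated counts; with 2 libraries per population a gene that missed the threshold is not shown to be unchanged. Alternatives were other scaling, other tests, other filters, a replicate block, only the 2 populations compared, and leaving out each library.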

Additional observations from a re-analysis of the deposited data

How the results depend on the processing

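Between d0 and d5FS, 13 subunit genes were called (3 higher, 10 lower). The count was 3 (1 higher, 2 lower) by DESeq2's test against 2-fold, which called 1006 of all 14745 genes. It was 23 (8 higher) with a replicate block (all genes: 5471 of 14539) and 19 (5 higher) by DESeq2's Wald test (4181 of 15159). With no filter on low counts it was 17 (5 higher), against 4633 of 21376 for all genes. Between d0 and d3F the count of 2 was 5 by DESeq2's Wald test (all genes: 1490 of 14745) and 1 by its test against 2-fold (383 of 14745). It was 6 with no filter (1933 of 21376) and 6 with the replicate block (1409 of 14539). The count was 0 with at least 10 counts in every sample (357 of 12094) and 0 with only the 2 populations compared (430 of 13995). Between d3F and d5FS the count of 0 was 4 by the Wald test (1058 of 14745), 5 with no filter (1423 of 21376) and 3 with the block (1015 of 14539). The cause of these differences was not tested. Without 1 library the counts ran from 1 to 11 between d0 and d5FS (0 to 4 higher, 1 to 8 lower), from 0 to 2 between d0 and d3F, and stayed at 0 between d3F and d5FS.

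The labels give nothing but a number that ties same-numbered replicates, and 2 pairs per comparison are too few to settle a pairing. Their deviations from the population means correlated at 0.319, 0.332 and 0.287 over genes, and replicate 2 had more detected genes and a larger TPM share of short genes in each population. Blocking on the number moved the calls as above and took none of the 13 away. Of the 57 genes, 13 were higher in replicate 1 in all 3 populations and 12 lower (of all genes, 3356 and 3594 of 14539).

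By CPM with no length correction, share differences between d0 and d5FS were -14.6 points for Smarcc1 (14.6 for Smarcc2), -13.1 for Rbbp4 (13.1 for Rbbp7), 5.93 for Cbx8, 11.5 for Pcgf5 and 39.7 for Phc2. Within a library TPM is FPKM on another scale, so shares by FPKM equal those by TPM and are no check. By TPM without 1 library, share differences ran from -56.6 to -52.5 for Phc1, 45.9 to 54.6 for Phc2, -41.5 to -27.8 for Cbx7, 17.3 to 28.2 for Cbx2, 15.2 to 15.9 for Cbx8, -33.8 to -26.3 for Pcgf6, 16.9 to 20.2 for Pcgf5, -25.7 to -21.1 for Hdac1, -18.3 to -15.3 for Smarcc1, -12.1 to -9.65 for Rbbp4, 8.83 to 12.9 for Mta1, 5.66 to 14.4 for Mbd2 and -22.1 to -6.48 for Jarid2. No direction of a called gene or share was turned between d0 and d5FS. Genes under about 10 counts in a library, such as Dpf3 in d0, are limited by depth.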
